A study of Homo sapiens with 15 samples.

Results

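The 6 genes described here, KCNJ15, IL13RA2, NOSTRIN, FMOD, HOPX and TFF1, were chosen by their log2 ratio in MDA-MB231 cells with CtBP2 silencing, where their signal moved far from the control. They are covered by 8 of the 41000 probes of a whole human genome array, which carries 30992 distinct gene names. HOPX, listed on the array under its older name HOP, and TFF1 have a pair of probes each. The question followed here was whether HIPP or P4, small molecules made to inhibit CtBP2, moved the same genes the same way. Because the shCtBP2 values chose the genes, they are given as a description and without a test. Only the responses to HIPP and to P4, and the difference between those responses, were tested.

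MDA-MB231 is a triple-negative breast cancer cell line. The series holds 15 Agilent 2-color arrays, 5 biological replicates each of shCtBP2 cells (a stable line made by short hairpin RNA and selected with puromycin), of cells given HIPP and of cells given P4. Cells were collected after 24 h. On each array, cRNA of treated cells carried Cy5 and cRNA of control cells carried Cy3, so that a dye effect of a probe could not be told apart from the treatment. The labels name untreated MDA-MB-231 cells as the control throughout, whereas the study's methods describe a scrambled control for the silenced cells. Against untreated cells, transfection and selection cannot be told apart from the loss of CtBP2. HIPP (sodium 2-hydroxyimino-3-phenylpropanoate) carries an oxime where P4 (sodium 2-hydrazone-3-phenylpropanoate) carries a hydrazone, and the labels give no concentration of either for the arrays.

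CtBP2 is a corepressor that binds NAD(H) and is brought to genes by DNA-binding repressors such as ZEB1, whose known recognition sequence is CACCTG. A direct target of a corepressor rises when the corepressor is lost, while secondary changes can go either way. KCNJ15 encodes the inwardly rectifying potassium channel Kir4.2, and IL13RA2 encodes a high-affinity receptor for interleukin 13 with a short cytoplasmic tail that is often described as a decoy. NOSTRIN is an adaptor protein that controls the trafficking of endothelial nitric oxide synthase. FMOD (fibromodulin) is a small leucine-rich proteoglycan that binds collagen. HOPX is an atypical homeodomain protein that does not bind DNA itself. TFF1 is a secreted trefoil peptide, best known in breast cancer as a gene induced by oestrogen.

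Promoter sequences are shown for KCNJ15, which was higher in shCtBP2 cells, and for FMOD and HOPX, which were lower, because the ZEB1 sequence is the letter pattern through which CtBP2 is most often described as reaching DNA. Each is the 250 bases before an annotated transcription start (RefSeq, GRCh38.p14), written 5′ to 3′ along the gene, with CACCTG or its complement CAGGTG in capitals. KCNJ15 (chr21:38272258-38272507, plus strand), FMOD (chr1:203351123-203351372, minus strand) and a pair of HOPX starts (first chr4:56681297-56681546, second chr4:56656518-56656767, both minus strand) follow.
KCNJ15: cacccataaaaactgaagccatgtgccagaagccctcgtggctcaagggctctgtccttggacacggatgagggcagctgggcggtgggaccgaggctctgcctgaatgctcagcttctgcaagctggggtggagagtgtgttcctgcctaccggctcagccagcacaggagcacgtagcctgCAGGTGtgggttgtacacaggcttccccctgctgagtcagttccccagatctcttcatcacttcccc
FMOD: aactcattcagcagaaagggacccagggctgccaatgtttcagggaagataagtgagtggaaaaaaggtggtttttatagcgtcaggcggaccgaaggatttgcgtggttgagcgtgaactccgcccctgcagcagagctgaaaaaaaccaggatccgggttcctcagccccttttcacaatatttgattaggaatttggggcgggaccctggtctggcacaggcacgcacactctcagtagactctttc
HOPX, first start: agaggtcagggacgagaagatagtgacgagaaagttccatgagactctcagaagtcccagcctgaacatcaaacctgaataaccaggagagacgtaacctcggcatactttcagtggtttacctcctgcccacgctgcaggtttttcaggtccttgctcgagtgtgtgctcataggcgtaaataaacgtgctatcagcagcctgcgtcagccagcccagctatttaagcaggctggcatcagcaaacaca
HOPX, second start: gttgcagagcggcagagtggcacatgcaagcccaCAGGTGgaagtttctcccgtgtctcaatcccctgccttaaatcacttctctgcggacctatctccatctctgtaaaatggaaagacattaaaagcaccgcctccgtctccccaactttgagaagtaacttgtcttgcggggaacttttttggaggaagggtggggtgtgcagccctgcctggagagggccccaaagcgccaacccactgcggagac

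The promoter table held 5 promoters of 4 of the 6 genes, and not IL13RA2 or TFF1. The sequence was found in 2 of these 5, ending 62 bases before the KCNJ15 start and 211 bases before the second HOPX start. It was not in these 250 bases of FMOD, of NOSTRIN (chr2:168802387-168802636, plus strand) or of the first HOPX start. Of all 35116 promoters of this length, 17.5% held it on either strand. A match of these letters is a description of the window and not a binding site.

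CTBP2 itself was lower on all 5 shCtBP2 arrays at both of its probes. Its mean log2 ratios were −0.42 ± 0.14 and −0.39 ± 0.17 (SD, n = 5), or 74.6 and 76.3% of the control signal, below the 1.5-fold threshold of the study's methods. The limma adjusted p-values were 0.153 and 0.0178. Against scrambled cells, the study reported a larger loss of CtBP2 mRNA by real-time PCR, and less CtBP2 protein. With HIPP the same probes gave 0.78 ± 0.50 and 0.37 ± 0.24, and with P4 0.53 ± 0.56 and −0.19 ± 0.15 (SD, n = 5). CTBP1 had log2 ratios between 0.23 and 0.39 at its 4 probes in shCtBP2 cells. The scanner software put 64.9 to 81.0% of gene spots well above background per array and channel, and 0 were saturated. In the control channel, VIM, CD44, EGFR, AXL and CAV1 were well above background on all 15 arrays and CDH1 and PGR on 0. ERBB2 and EPCAM, listed with ESR1, CDH1 and PGR as markers low in this line, were well above background on 15 arrays and ESR1 on 11. The arrays lay on 4 slides, with P4 replicates 1 to 4 on slide 1, P4 replicate 5 and HIPP replicates 1 to 3 on slide 2, HIPP replicates 4 and 5 and shCtBP2 replicates 1 and 2 on slide 3, and shCtBP2 replicates 3 to 5 on slide 4.

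In shCtBP2 cells, KCNJ15 and IL13RA2 were above the control on all 5 arrays, and NOSTRIN, FMOD, 1 HOPX probe and both TFF1 probes were below it on all 5. That HOPX probe was also lower with both inhibitors, whereas NOSTRIN and FMOD stayed near the control level. A call needed an adjusted p under 0.05 and the fold change that the study's methods set for the compound, 2.5 for HIPP and 1.8 for P4. Of the 7 probes tested with HIPP, 2 were called, against 8.45% of all 36490 probes tested. KCNJ15 was higher (4.12% of all probes were called higher) and 1 HOPX probe lower (4.32%). Of the 8 tested with P4, 3 were called, against 9.51% of 36490. KCNJ15 and IL13RA2 were higher (4.43% of all probes) and the same HOPX probe lower (5.08%). These counts dropped to 0 of 7 and 0 of 8 after normexp, a model-based background correction, and loess, a dye normalization that follows intensity. There 557 and 933 of all probes were called with HIPP and P4. On mean signals they also dropped to 0 of 7 and 0 of 8, where 1042 and 1104 were called. Normexp was run with an offset of 50 added to both channels, and mean signals keep their background. Both draw the ratios of dim signals toward 0, so dim probes reached the fold-change thresholds less easily there. Among the calls on processed signals, HOPX alone had a channel well above background on all 5 arrays of each compound. KCNJ15 and IL13RA2 were near the limit of detection.

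**Figure D1:**
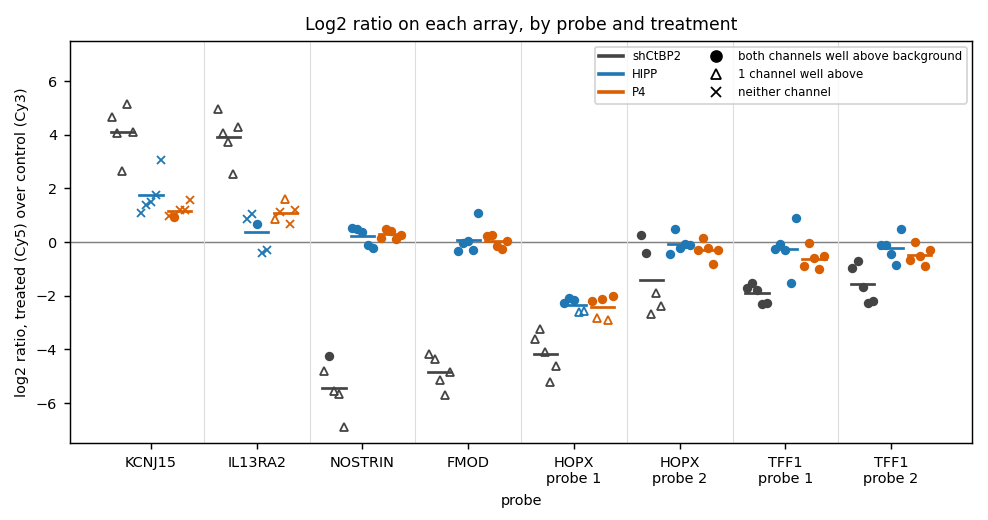
Log2 ratio of treated over control signal (vertical axis) on each of the 15 arrays for the 8 probes (horizontal axis), with a bar at the mean of 5 arrays. Filled circles have both channels well above background, triangles 1 channel and crosses neither. The KCNJ15 ratios with HIPP, from 1.10 to 3.06, are all crosses, whereas the FMOD and NOSTRIN ratios with both inhibitors are filled circles from −0.34 to 0.54, apart from FMOD at 1.08 on 1 HIPP array.

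KCNJ15 (probe A_23_P17655, chr21:38594215-38594274 on hg17) was barely detected in control cells. On the shCtBP2 arrays the processed signal of the treated channel was 83.6, 67.0, 80.4, 88.2 and 69.5 in replicates 1 to 5, beside control signals of 3.34, 4.03, 13.0, 2.49 and 4.08. All 5 treated signals were well above background and none of the control signals was. The log2 ratios were 4.65, 4.06, 2.63, 5.15 and 4.09, with a mean of 4.11 ± 0.94 (SD, n = 5). Because the control was dim on every array, the size of this ratio is not a measured fold change. For genes whose dim channel was not well above background on any array, a more cautious ratio was therefore computed. It used normexp correction with an offset of 50, which draws the ratios of dim signals toward 1, then loess and quantile normalization. A dim signal was raised to the lowest well-measured signal of its array where it lay under it. For KCNJ15, 0 of the 5 control signals lay under it, so the value of 1.57-fold is the mean ratio after these steps and no lower limit. With HIPP the log2 ratios were 1.10, 1.40, 1.51, 1.76 and 3.06, on treated signals of 9.89 to 30.4 and control signals of 3.45 to 10.7. Every ratio was positive, but neither channel was well above background on any of the 5 arrays, so their size is not a measured fold change. The mean was 1.77 ± 0.76 (SD, n = 5), with a limma adjusted p of 0.000157. With P4 the log2 ratios were 0.99, 0.92, 1.21, 1.19 and 1.57, and 1 of the 5 arrays, replicate 2, had both channels well above background. Their mean was 1.17 ± 0.25 (SD, n = 5, limma adjusted p = 0.00721). Using mean signals without background correction, the means were 0.25 with HIPP (limma adjusted p = 0.0548) and 0.10 with P4 (limma adjusted p = 0.531), and the calls were lost, as they were after normexp and loess. The P4 call was also lost with slide as a term in the fit (1.88, limma adjusted p = 0.0524) and by the methods' t-test on the same ratios (adjusted p = 0.443 over all probes and 0.198 over those past the fold change).

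IL13RA2 (A_23_P85209, chrX:114061571-114061630) had the same profile in silenced cells, a signal in the treated channel and almost none in the control. Treated signals on the shCtBP2 arrays were 99.1, 79.9, 32.4, 43.5 and 58.0, and control signals 3.22, 4.83, 2.44, 7.55 and 2.95. The treated channel was well above background on 5 arrays and the control channel on 0. The log2 ratios were 4.94, 4.05, 3.73, 2.52 and 4.30 (mean 3.91 ± 0.89, SD, n = 5), and the cautious ratio was 1.54-fold higher. It is mostly a mean after these steps and no strict lower limit, since only 1 of the 5 control signals was raised. With HIPP the ratios split by slide: 0.85, 1.03 and 0.68 in replicates 1 to 3 on slide 2, and −0.40 and −0.29 in replicates 4 and 5 on slide 3. The mean was 0.37 ± 0.67 (SD, n = 5, limma adjusted p = 0.276), and only replicate 3 had channels well above background. With P4 all 5 ratios were positive, at 0.87, 1.13, 1.60, 0.68 and 1.20. The treated channel was well above background in replicates 1 and 3 and the control channel on no array. The mean was 1.10 ± 0.35 (SD, n = 5, limma adjusted p = 0.00774). The call was lost with slide as a term in the fit (0.32, limma adjusted p = 0.641), on mean signals and after normexp and loess (0.13, limma adjusted p = 0.341). It was also lost by the methods' t-test over all probes (adjusted p = 0.121). The P4 mean was 1.07 on slide 1 and 1.20 on slide 2. As slide 1 held only P4 arrays, the fit with slide could separate P4 from slide only through replicate 5.

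**Figure D2:**
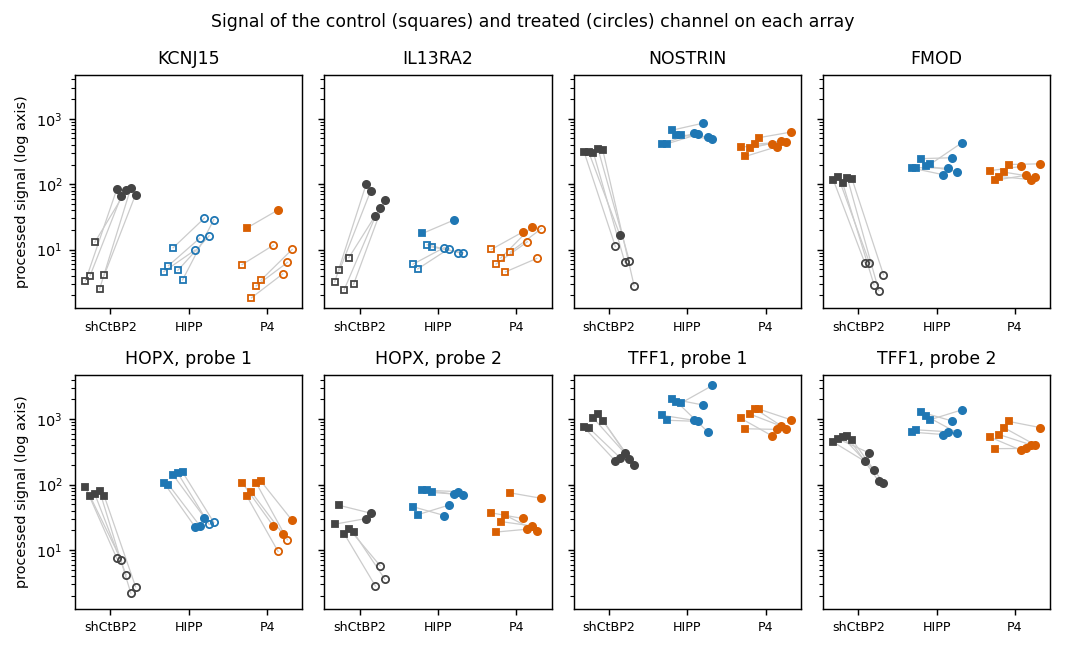
Processed signal of the control channel (squares) and the treated channel (circles) on each array, on a log axis, for the 8 probes. Lines join the channels of an array and open symbols are not well above background. FMOD in shCtBP2 cells lies between 2.37 and 6.37 in the treated channel, beside 103 to 131 in the control channel, while both channels of the inhibitor arrays are at 115 or above.

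NOSTRIN (A_23_P79360, chr2:169546888-169546947) was clearly expressed in control cells and lower in shCtBP2 cells. Control signals on the shCtBP2 arrays were 313, 309, 302, 340 and 330, and treated signals 11.2, 16.5, 6.48, 6.68 and 2.80. Only replicate 2 of the treated channel was well above background. The log2 ratios were −4.81, −4.23, −5.54, −5.67 and −6.88 (mean −5.42 ± 1.00, SD, n = 5). As the treated channel was dim on the other 4 arrays, the size is not well measured, and after normexp and loess the same ratios were −2.13, −0.14, −2.53, −2.49 and −2.77. With the inhibitors the ratios lay between −0.21 and 0.54. With P4 the treated signal was 374 to 625 and the ratios 0.16, 0.49, 0.40, 0.11 and 0.27, all slightly above 0. Their mean was 0.29 ± 0.16 (SD, n = 5), with a 95% interval from −0.26 to 0.84 and a limma adjusted p of 0.396. With HIPP the treated signal was 488 to 856, and the ratios were 0.54, 0.48 and 0.36 on slide 2 and −0.097 and −0.21 on slide 3. The probe varied too little over the HIPP arrays to pass the interquartile range filter and was not tested there. Its mean was 0.21 ± 0.34 (SD, n = 5; limma adjusted p = 0.512 without the filter), and both channels were well above background on all 10 inhibitor arrays.

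FMOD (A_23_P114883, chr1:200041472-200041531) had a profile like that of NOSTRIN. In shCtBP2 cells its treated signal was 6.37, 6.37, 2.90, 2.37 and 4.15 beside control signals of 116, 131, 103, 123 and 119. No treated signal was well above background and every control signal was. The log2 ratios were −4.18, −4.36, −5.14, −5.69 and −4.85 (mean −4.85 ± 0.61, SD, n = 5). The cautious ratio was 2.20-fold lower in silenced cells, with 1 of the 5 treated signals raised, so it too is no strict limit. With the local background capped it was 2.65-fold lower, and the normexp offset lowers both values. With HIPP the ratios were −0.34, −0.022, 0.047, −0.30 and 1.08, around 0 except for replicate 5. The mean was 0.094 ± 0.58 (SD, n = 5), with a 95% interval from −0.36 to 0.55 and a limma adjusted p of 0.73, and it was −0.15 without replicate 5. With P4 the ratios were 0.22, 0.25, −0.14, −0.25 and 0.039. The mean was 0.023 ± 0.22 (SD, n = 5), with a 95% interval from −0.43 to 0.48 and a limma adjusted p of 0.941.

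HOPX is measured by a pair of probes that did not behave alike, so the first 30 bases of each are shown. The first, A_23_P254507, lies at chr4:57355371-57355430 and the second, A_24_P913146, at chr4:57362960-57363016 (hg17, minus strand), and their starts are 7589 bases apart.
A_23_P254507: ggaacacatttccttctgaacttacttccc
A_24_P913146: gcacacccggattccaccacgctgtgcctc
The longest run of bases that the whole 60-base probes share is 6, and their GC content is 35.0 and 68.3%. The array's annotation ties both to the same transcript.

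The first HOPX probe was lower on all 15 arrays. In shCtBP2 cells its treated signal was 7.46, 6.92, 4.18, 2.19 and 2.75, none of it well above background, beside control signals of 91.2, 65.8, 71.5, 80.5 and 66.9. The log2 ratios were −3.61, −3.25, −4.10, −5.20 and −4.61 (mean −4.15 ± 0.78, SD, n = 5), and the cautious ratio was 1.91-fold lower, with 3 of the 5 treated signals raised. With HIPP the ratios were −2.26, −2.09, −2.16, −2.60 and −2.56, on treated signals of 22.5 to 31.3 and control signals of 100 to 155. The treated channel was well above background in replicates 1 to 3 and the control channel on all 5 arrays. The mean was −2.33 ± 0.23 (SD, n = 5), which is 19.9% of the control signal, with a 95% interval from −2.80 to −1.86 and a limma adjusted p of 6.97e-07. With P4 the ratios were −2.21, −2.81, −2.12, −2.90 and −2.00, and replicates 1, 3 and 5 of the treated channel were well above background. Their mean was −2.41 ± 0.42 (SD, n = 5), or 18.9% of the control, with a 95% interval from −2.88 to −1.93 and a limma adjusted p of 3.47e-06.

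The first probe stayed below 0 in each alternative analysis run with either compound, but its size did not hold. On mean signals without background correction the first probe had a log2 ratio of −0.75 with HIPP (limma adjusted p = 2.63e-06) and −0.82 with P4 (limma adjusted p = 5.47e-06). After normexp and loess it had −0.66 (limma adjusted p = 0.00438) and −0.83 (limma adjusted p = 0.00149). These passed the adjusted threshold and missed the fold-change thresholds, which stand at 1.32 and 0.85 on the log2 scale. The background kept in mean signals and the normexp offset of 50 both draw the ratios of dim signals toward 0.

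The ratios of the second HOPX probe split by slide in silenced cells. Its log2 ratios were 0.28 and −0.39 in shCtBP2 replicates 1 and 2 on slide 3 and −2.66, −1.89 and −2.38 in replicates 3 to 5 on slide 4. The treated signal was 30.2 and 36.5 on slide 3 and 2.81, 5.74 and 3.58 on slide 4, where it was not well above background. With HIPP the ratios were −0.45, 0.49, −0.23, −0.076 and −0.11 (mean −0.075 ± 0.35, SD, n = 5, limma adjusted p = 0.861). With P4 they were −0.28, 0.15, −0.22, −0.81 and −0.28 (mean −0.29 ± 0.34, SD, n = 5, limma adjusted p = 0.507). Both channels were well above background on all 10 inhibitor arrays. With slide as a term the means were lower, −0.65 with HIPP (limma adjusted p = 0.0366) and −0.86 with P4 (limma adjusted p = 0.115). Neither was called. Slide 1 held only P4 arrays and slide 4 only shCtBP2 arrays, so slide and treatment were poorly separated in that fit. A test of the difference between the probes was not run.

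TFF1 was well above background in both channels of all 15 arrays at both probes, A_23_P68759 (chr21:42655482-42655541) and A_24_P322771 (chr21:42656509-42656568). At the first probe the shCtBP2 ratios were −1.70, −1.51, −1.78, −2.31 and −2.25 (mean −1.91 ± 0.35, SD, n = 5), and at the second −0.97, −0.72, −1.68, −2.27 and −2.18 (mean −1.56 ± 0.70). These are 26.6 and 33.8% of the control signal, and since both channels were measured they are measured fold changes. They differed by slide, with means of −0.84 on slide 3 and −2.04 on slide 4 at the second probe. At the first probe these means were −1.6 and −2.11. With HIPP the first probe gave −0.24, −0.059, −0.31, −1.54 and 0.89. Replicates 4 and 5, which shared slide 3, lay at opposite ends, and the mean was −0.25 ± 0.87 (SD, n = 5, limma adjusted p = 0.40). The second probe gave −0.12, −0.096, −0.46, −0.86 and 0.49 with the same order of replicates 4 and 5 (mean −0.21 ± 0.50, SD, n = 5, limma adjusted p = 0.449). With P4 the first probe was below 0 on all 5 arrays, at −0.89, −0.032, −0.61, −1.02 and −0.52. Its mean was −0.62 ± 0.38 (SD, n = 5), with a 95% interval from −1.13 to −0.096 and a limma adjusted p of 0.0649. The second probe had −0.67, 0.012, −0.51, −0.88 and −0.31 with P4 (mean −0.47 ± 0.34, SD, n = 5, limma adjusted p = 0.114). Neither compound changed TFF1 past the threshold.

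The response to HIPP and the response to P4 were compared in 7 tests, 1 for each probe tested with both compounds, and 0 of the 7 differed, against 13.0% of 33204 probes. The labels give no concentrations for the arrays, and the study's methods name a higher one for HIPP than for P4 in its proliferation assay, so the responses cannot be set at matched doses. The first HOPX probe differed by 0.074 on the log2 scale, with a 95% interval from −0.59 to 0.74 (limma adjusted p = 0.951). FMOD differed by 0.071 (95% interval −0.57 to 0.71, limma adjusted p = 0.951). The widest gap was that of IL13RA2, −0.73 (95% interval −1.57 to 0.12, limma adjusted p = 0.281), and KCNJ15 differed by 0.59 (95% interval −0.30 to 1.48, limma adjusted p = 0.438), both on dim spots. The TFF1 probes differed by 0.36 (95% interval −0.37 to 1.10) and 0.26 (95% interval −0.42 to 0.94), and the second HOPX probe by 0.21 (95% interval −0.77 to 1.20), with limma adjusted p-values of 0.603, 0.712 and 0.869. The intervals leave room for differences of up to 1.57 in size, so a like response to the oxime and the hydrazone was not shown.

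**Figure D3:**
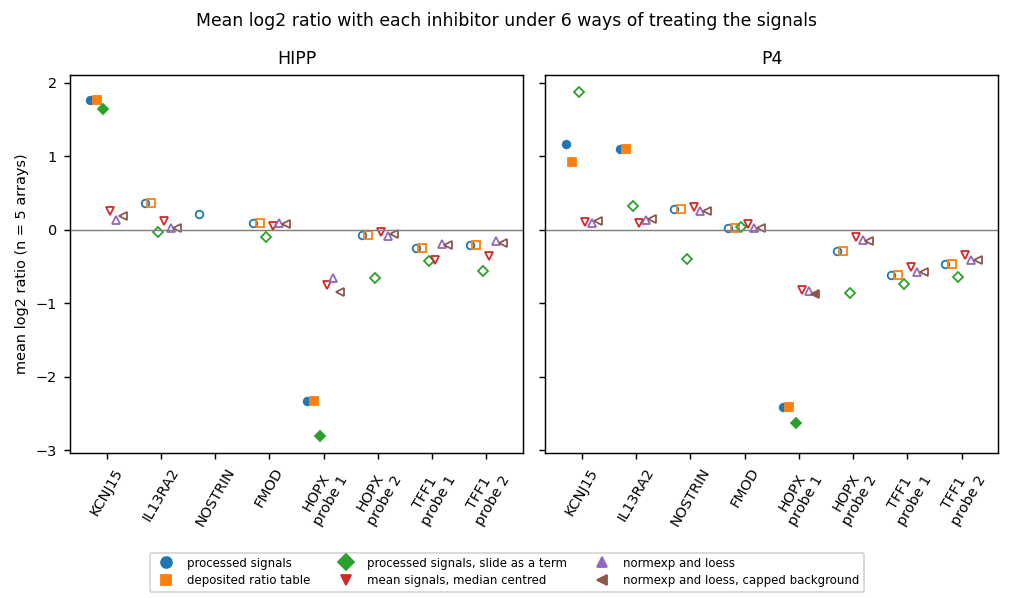
Mean log2 ratio of the 8 probes with HIPP (left) and P4 (right) under 6 treatments of the signals, filled where the adjusted p and the fold-change threshold were both passed. KCNJ15 with HIPP goes from 1.77 on processed signals to 0.25 on mean signals, and the first HOPX probe stays below 0 in all 6.

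Genes related to each of the 6 by family or pathway were followed at their brightest probe. The shares called in these short lists are to be read against 8.45% of all probes with HIPP and 9.51% with P4. Of 13 other inward rectifier channels, 1 was called with HIPP and 0 with P4. KCNJ14 was the one, at 1.66 ± 0.42 (SD, n = 5, limma adjusted p = 1.51e-06). Its P4 ratio of 0.84 ± 0.53 (limma adjusted p = 0.00181) lay just short of the fold change required. Of the genes of interleukin 4 and 13 signalling, 0 of 11 were called with HIPP and 0 of 12 with P4, and their median log2 ratios were 0.15 and 0.19, beside 0.081 and 0.10 over all probes tested. Of 12 nitric oxide synthases and their regulators, 1 was lower with HIPP and 2 with P4. CAV1, the caveolar coat protein that binds endothelial nitric oxide synthase, was lower with both, at −2.56 ± 0.28 with HIPP (limma adjusted p = 1.42e-09) and −1.76 ± 0.23 with P4 (limma adjusted p = 1.47e-07; SD, n = 5). It had −0.87 ± 0.16 in shCtBP2 cells. The kinase AKT1 had −0.90 ± 0.41 with P4 (limma adjusted p = 0.000173), a call lost after normexp and loess (−0.47), and −1.10 ± 0.21 with HIPP (limma adjusted p = 7.15e-06), which missed only the higher HIPP fold-change threshold (SD, n = 5).

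Of 14 small leucine-rich proteoglycans, the family of FMOD, 1 was called higher with HIPP and 1 higher and 1 lower with P4. These were ECM2, dim in both channels with HIPP and in the control channel with P4, and KERA, well above background in the control channel of 1 array. Of the HOPX partners, 1 of 8 was called with HIPP and 0 of 7 with P4. MRTFB, a coactivator of SRF, was the one, at −2.49 ± 0.54 (SD, n = 5, limma adjusted p = 1.33e-08). Its P4 ratio of −0.71 ± 0.21 (limma adjusted p = 0.00262) was too small in fold change to be called. Among trefoil factors and genes of oestrogen receptor biology, 2 of 14 were called with HIPP and 3 of 15 with P4. GREB1, an oestrogen-induced gene, was higher with both, at 1.81 ± 0.46 with HIPP (limma adjusted p = 4.15e-07) and 1.24 ± 0.29 with P4 (limma adjusted p = 7.03e-05; SD, n = 5). PDZK1, a scaffold protein, was lower with both, at −2.17 ± 0.93 with HIPP (limma adjusted p = 2.52e-05) and −0.98 ± 0.73 with P4 (limma adjusted p = 0.0205; SD, n = 5), with the treated channel well above background on 2 and 4 of 5 arrays. AGR2, a disulfide isomerase, was lower with P4 at −1.29 ± 0.63 (SD, n = 5, limma adjusted p = 0.00318), beside −1.11 ± 0.82 in shCtBP2 cells. TFF3, a close relative of TFF1, had −3.36 ± 0.51 (SD, n = 5) in shCtBP2 cells. Its ratios with the inhibitors were above 0 and under the fold-change thresholds, 0.95 ± 0.21 for HIPP and 0.55 ± 0.35 for P4 (SD, n = 5; limma adjusted p = 0.000199 and 0.0189). After normexp and loess the calls of KCNJ14, CAV1, MRTFB and AGR2 held, and those of AKT1, ECM2, KERA, GREB1 and PDZK1 were lost. The median log2 ratios of the 6 lists lay between −0.36 and 0.40 with HIPP and between −0.054 and 0.42 with P4.

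**Figure D4:**
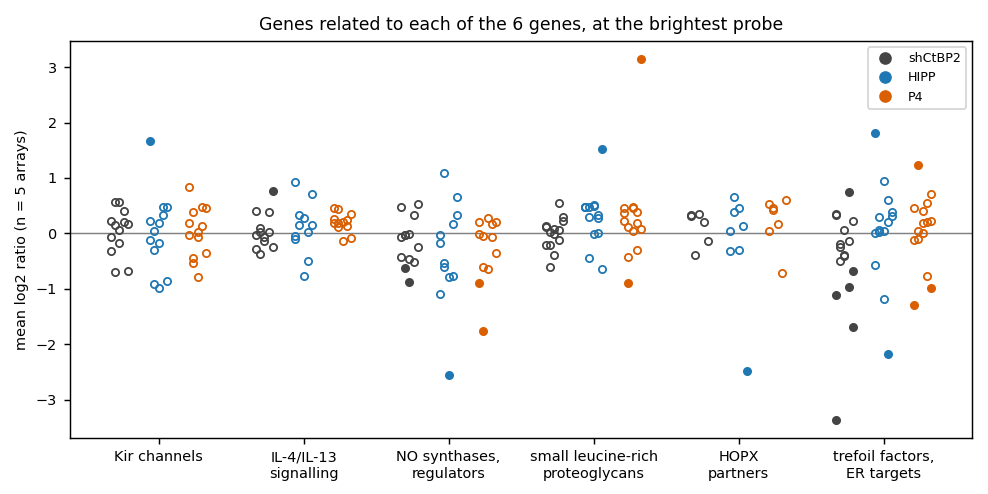
Mean log2 ratio (n = 5 arrays) of each related gene at its brightest probe, by list and treatment, filled where both thresholds were passed. The lowest shCtBP2 point is TFF3 at −3.36, and the lowest HIPP point is CAV1 at −2.56.

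For each of the 6 genes, the 3 other genes whose log2 ratios correlated best with it over the 15 arrays (Pearson's r) were looked up among 20076 probes above background. The measure compares the pattern over arrays and not the size or sign of the ratios. The arrays share slides and come from silenced and from inhibitor-treated cells, so r is given as a description. TFF3 came first for both NOSTRIN (r = 0.986) and FMOD (r = 0.984). TBC1D20 and GGT1 followed for NOSTRIN (both r = 0.97), and ABCC2 (r = 0.976) and LIMCH1 (r = 0.97) for FMOD. For the first HOPX probe the nearest was BOLA1 (r = 0.967), with −2.74 in shCtBP2 cells and 0.33 and 0.35 with HIPP and P4, followed by MT1G (r = 0.939) and PSMB7 (r = 0.929). RAB15, SPON2 and CMC2 were nearest to IL13RA2 (r = 0.976, 0.96 and 0.959). PLEKHM1, SREBF1 and MYLIP were nearest to KCNJ15 (r = 0.922, 0.919 and 0.913), with mean ratios of 0.19 to 0.44 in shCtBP2 cells and below 0 with both inhibitors. ZFY, RASAL2 and LARP4 were nearest to the brighter TFF1 probe (r = 0.943, 0.936 and 0.932).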

How the data were processed

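The deposited scanner files hold, for 15 arrays, spot intensities after the authors' background and dye correction with Agilent Feature Extraction 9.5, and log10 ratios, which they also deposited as a table of log10 values. In that table a ratio is set to 0 where neither signal was significant. From the processed intensities, log2 of Cy5 over Cy3 was taken per spot, flagged spots (78 to 265 an array) were left out, and spots of a probe were averaged. The 11% of probes with the lowest interquartile range were removed, and 3 of 5 arrays were required. limma 3.58.1 (R 4.3.3) fitted all arrays together, with Benjamini-Hochberg adjustment over all probes tested. It was tested on simulated data. Current symbols were found for 26791 of 41000 probes. A level well above background is the scanner software's own flag. The members and lists were chosen with earlier results of these data known. Named beside the 6 genes were CTBP2 and CTBP1, the 3 nearest genes by pattern, and at most 3 called genes a list. Alternatives changed the background correction, normalization, filters, slide term, test and arrays used. The number of arrays limits the precision.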

Additional observations from a re-analysis of the deposited data

Results flagged for a closer look

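The log2 ratio of FMOD with HIPP replicate 5 was 1.08, far from the other 4 HIPP arrays, the nearest of which was at 0.047. The gap took 0.73 of the whole range, above Dixon's 95% critical value of 0.71 for 5 samples. It was 1 of 24 sets of 5 arrays looked at (8 probes under 3 treatments), and about 5% of such sets are marked by chance. In the same array TFF1 had its highest HIPP ratios, 0.89 and 0.49, and KCNJ15 its highest, 3.06.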

How the results depend on the processing

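The calls with HIPP and P4 were lost under several treatments of the signals, in which background correction and normalization changed together. On mean signals, HIPP gave log2 ratios of 0.25 for KCNJ15 and −0.75 for the first HOPX probe, and P4 gave 0.10, −0.82 and 0.089 for KCNJ15, HOPX and IL13RA2, none of them called. After normexp and loess these were 0.13 and −0.66 with HIPP and 0.09, −0.83 and 0.13 with P4, none called. Very bright local backgrounds at 12 to 29 spots of a channel drew the fitted background of 2 arrays down to −855 to −644. These were replicate 2 of shCtBP2 and replicate 2 of HIPP. The background was therefore also capped at its 99th percentile, a step chosen after seeing the data. That gave 0.19 and −0.84 with HIPP, both lost, and 0.12 and 0.15 for KCNJ15 and IL13RA2 with P4, both lost, while HOPX with P4 stayed called. With slide as a term, P4 gave 1.88 for KCNJ15 and 0.32 for IL13RA2, both lost. The second HOPX probe moved to −0.65 and −0.86 with HIPP and P4. The slide term turned the sign of IL13RA2 (−0.024) and FMOD (−0.10) with HIPP and of NOSTRIN with P4 (−0.40). NOSTRIN was above 0 on all 5 P4 arrays, with means of 0.29 on slide 1 and 0.27 on slide 2. The term also turned HIPP minus P4 for KCNJ15 (−0.23), FMOD (−0.14) and the first HOPX probe (−0.17). None of these was called. On mean signals HIPP minus P4 turned to 0.035 for IL13RA2, −0.024 for FMOD and −0.016 for the second TFF1 probe. The methods' test, unpaired on the channel signals, lost KCNJ15 with P4 (1.17) over all probes and past the fold threshold. It lost IL13RA2 with P4 (1.10) over all probes. Averaging both HOPX probes gave −1.20 with HIPP, lost, and −1.35 with P4, called. The cause of these changes was not tested.

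Leaving out 1 array in turn ended no call. It turned signs near 0: FMOD ranged from −0.15 to 0.20 with HIPP and −0.034 to 0.092 with P4, the second HOPX probe from −0.22 to 0.017 and the first TFF1 probe from −0.54 to 0.07 with HIPP, and HIPP minus P4 from −0.18 to 0.18 for FMOD and −0.049 to 0.18 for the first HOPX probe. HIPP minus P4 ranged from 0.27 to 0.76 for KCNJ15 and from 0.073 to 0.32 for the second HOPX probe. For the TFF1 probes it ranged from 0.079 to 0.69 and from 0.087 to 0.42. IL13RA2 ranged from 0.21 to 0.56 and the second TFF1 probe from −0.38 to −0.047 with HIPP, and the second HOPX probe from −0.40 to −0.16 with P4. The probes called numbered 2519, 3082 and 3470 with shCtBP2, HIPP and P4, and 411, 557 and 933 after normexp and loess, 730, 998 and 974 with the cap, and 441, 1042 and 1104 on mean signals. The methods' test gave 1432 with shCtBP2 and 1557 with P4, and averaged probes gave 1944 with HIPP. Higher calls made up 48.6, 48.8 and 46.6%, and 73.5, 27.3 and 79.1% on mean signals, where the P4 median over all probes moved from 0.10 to −0.04. Under both normexp settings, 0 proteoglycans and 0 trefoil or oestrogen genes were called with HIPP, and with P4 0 proteoglycans in either direction, 1 nitric oxide gene lower, and 1 trefoil or oestrogen gene lower and 0 higher. The cautious ratios moved to 1.68, 1.72, 2.65 and 2.17 for KCNJ15, IL13RA2, FMOD and HOPX in shCtBP2 cells with the cap. Same-number arrays deviated together in 13 of 15 pairs (correlation over 0.1; −0.0605 to 0.485, median 0.166, against −0.0968 over 60 pairs of different numbers) and correlated best with their own number in 14 of 30 matches. As not every pair passed, the numbers were not taken to pair the arrays. With the replicate number as a block, 3088, 3080 and 3601 probes were called and no call among the 6 genes changed (HOPX −2.33 with HIPP and −2.41 with P4). Dim spots limit what KCNJ15 and IL13RA2 can show.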
